A study of Mus musculus with 12 samples.

Results

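The mRNA levels of 10 genes of the CD4 lineage choice and of T cell identity were followed through the 4 stages of CD4 single positive (SP) thymocytes in the mouse thymus: Cd4, Zbtb7b, Runx1, Runx3, Gata3, Tox, Tcf7, Lef1, Bcl11b and Myb. Members were the probe sets that the annotation of the Affymetrix Mouse Genome 430 2.0 array assigns to 1 of these symbols alone. This gave 25 probe sets for 9 of the 10 genes, out of 45037 probe sets and 18193 genes in the whole table. Tcf7 has no such probe set and was not analysed here. Cd4, Zbtb7b, Runx3 and Lef1 have 2 probe sets each, Tox and Myb have 3, Bcl11b has 4, Runx1 has 6 and Gata3 has 1.

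The 12 arrays measured RNA of CD4+CD8-CD25-NK1.1- thymocytes of C57BL/6 mice aged 6 to 8 weeks, with no treatment and 3 arrays for each subset. SP1 cells were 6C10+CD69+Qa-2-, SP2 cells 6C10-CD69+Qa-2-, SP3 cells 6C10-CD69-Qa-2- and SP4 cells 6C10-CD69-Qa-2+, in the order of their maturation. Thymi of several mice were pooled for each preparation, CD8+ cells were killed with antibody and complement, and the subsets were then sorted. By the study's own account, the SP4 gate for these arrays did not remove mature T cells that had returned to the thymus from the periphery. The study proposes that they may make up a low percentage of the SP4 cells, from data it does not show. Each value is a deposited intensity on a linear scale. Levels are compared within a probe set only, since probes differ in how brightly they bind, and a change in a sorted population can come from fewer cells of a type or from less RNA per cell, which cannot be told apart here.

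The choice between the CD4 and the CD8 lineage rests on a small circuit of transcription factors. Zbtb7b encodes ThPOK, a zinc finger repressor that commits cells to the CD4 lineage and holds down Runx3, the factor that silences Cd4 and drives the CD8 lineage. Gata3 and Tox act upstream of ThPOK in positively selected thymocytes. Tcf7 and Lef1 encode a pair of related HMG box factors that open and maintain T lineage genes, Bcl11b commits progenitors to the T lineage, and Myb serves survival and gene expression in immature thymocytes.

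Promoters of the members were read to show which family motifs stand near their start sites. RefSeq (GRCm38.p6) gave 15 promoters for 8 of the 10 genes, each of 300 bases, with 250 before the start and 50 after it. Cd4 and Tox had none, and Tcf7, whose level was not measured, is among the 8. Gata3 and Lef1 are shown because both were among the genes that were lower in SP4 than in SP1 on every pair of arrays. The Gata3 promoter is at chr2:9878551-9878850 on the minus strand, inside the annotated span of the gene (chr2:9857078-9887953). The first Lef1 promoter is at chr3:131110047-131110346 and another, at a start inside the gene (start 4 of the table), at chr3:131156044-131156343, both on the plus strand. Capitals mark matches on either strand to the RUNX motif TGTGGT, to the GATA motif AGATAA, to the TCF/LEF motif CTTTGA and to the MYB motif AACNG, and all sequences run 5′ to 3′.
Gata3 promoter: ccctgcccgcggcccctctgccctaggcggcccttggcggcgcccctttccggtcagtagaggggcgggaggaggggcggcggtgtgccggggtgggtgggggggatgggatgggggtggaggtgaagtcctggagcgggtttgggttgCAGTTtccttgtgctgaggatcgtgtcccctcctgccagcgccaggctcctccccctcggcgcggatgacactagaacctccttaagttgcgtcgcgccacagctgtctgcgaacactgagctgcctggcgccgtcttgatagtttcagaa
Lef1 promoter, start 1: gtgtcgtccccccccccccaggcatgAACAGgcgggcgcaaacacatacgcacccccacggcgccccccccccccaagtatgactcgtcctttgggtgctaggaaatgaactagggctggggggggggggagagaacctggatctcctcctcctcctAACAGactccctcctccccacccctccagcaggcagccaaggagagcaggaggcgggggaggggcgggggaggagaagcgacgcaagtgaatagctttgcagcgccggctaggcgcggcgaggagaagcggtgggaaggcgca
Lef1 promoter, start 4: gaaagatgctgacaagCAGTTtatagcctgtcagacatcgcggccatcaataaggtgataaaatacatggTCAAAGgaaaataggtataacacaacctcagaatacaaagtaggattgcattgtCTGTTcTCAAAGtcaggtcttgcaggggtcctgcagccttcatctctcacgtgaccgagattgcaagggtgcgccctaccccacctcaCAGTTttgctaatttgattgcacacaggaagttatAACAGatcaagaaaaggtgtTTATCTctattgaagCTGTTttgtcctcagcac
The Gata3 promoter holds 1 MYB motif and none of the other 3 motifs. The Lef1 promoter of start 1 holds 2 MYB motifs, while that of start 4 holds 1 GATA, 2 TCF/LEF and 5 MYB motifs. Start 4 is the only Lef1 start with a GATA or TCF/LEF motif. Of the Lef1 promoters not shown, start 2 overlaps start 1 and holds 3 MYB motifs, and start 3 holds none of these motifs. Of the 15 member promoters, 3 hold a RUNX motif, 1 a GATA motif, 2 a TCF/LEF motif and 11 a MYB motif. Among the 32851 promoters of the table these motifs stand in 16.8%, 11.2%, 16% and 80.3%, in the same order, and the members' counts were not tested against these shares. A match is a description of the letters and not a site of binding.

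All 9 measured genes lay above the array medians (30.46 to 32.83) on every array by their probe set of highest mean, which is used for each gene unless another is named. For Myb a probe set whose name ends in _x_at, and which may bind other transcripts, was brighter and was set aside. The T cell label was checked with 7 measured genes of the CD3 complex and T cell surface, whose summed intensity was 15430 to 20780 over the 12 arrays. The arrays of replicate 3 stood apart from the others for several members, and tests that take the replicate number into account are therefore given beside those that do not. All tests were made with limma on log2(intensity + 16) across all 45037 probe sets, first without the replicate number and then with it as a block. "Rose" and "fell" refer to an adjusted p under 0.05, and every fold change is on the log2(intensity + 16) scale, which understates the change of dim probe sets.

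**Figure D1:**
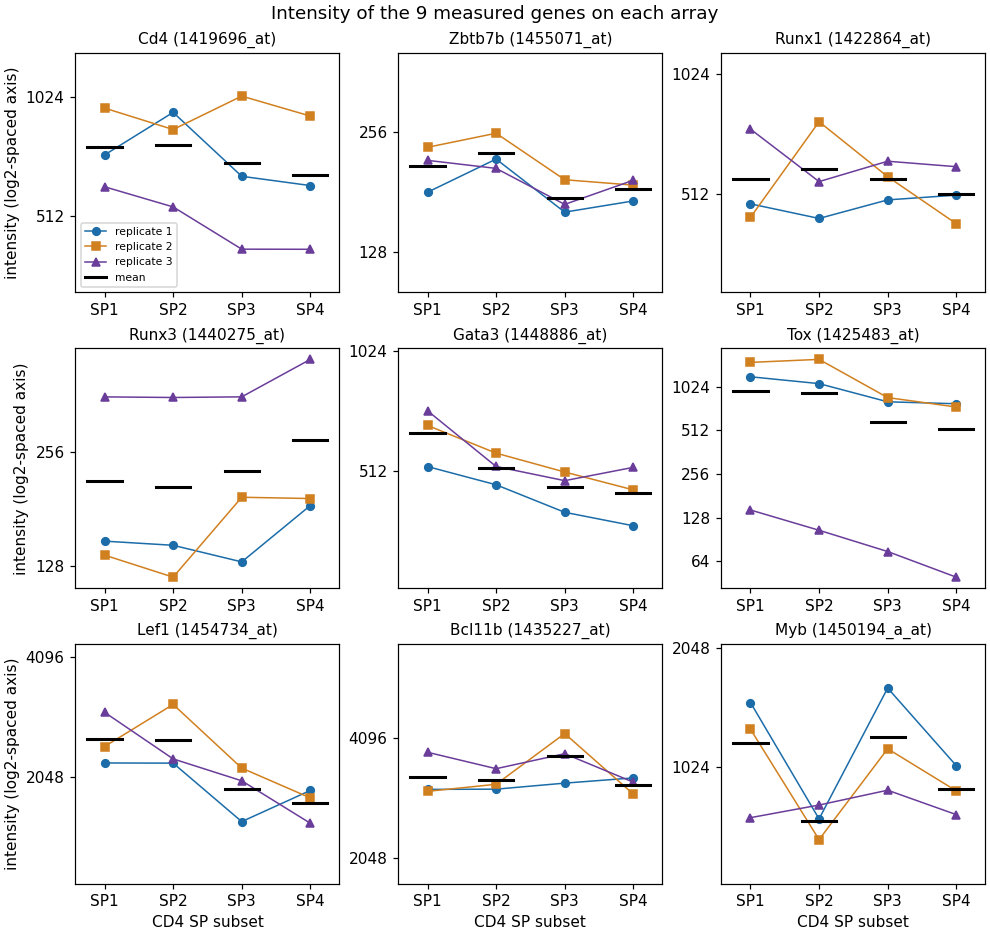
Intensity (log2-spaced axes) of the 9 measured genes in SP1, SP2, SP3 and SP4, by the probe set named above each panel. Each point is 1 array, lines join arrays of the same replicate number and black bars are subset means. The subset means of Gata3, Tox and Lef1 step down from SP1 to SP4, those of Lef1 hardly from SP1 to SP2. The Tox and Runx3 arrays of replicate 3 lie far from the other 2.

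Between SP4 and SP1, the ends of the maturation series, 8 of the 9 genes and 24 of the 25 probe sets had a fold change below 0, while 54.2% of all probe sets did. The median log2 fold change of the 9 genes was -0.27, against -0.01 for all genes. Without the block, limma called 0 of the 9 genes, where 1.08% of all probe sets were called, and 2 of the 9 had an unadjusted p under the threshold, as did 9.02% of all genes. With the replicate block, Tox and Gata3 fell, and no member rose. By probe set, 4 of 25 (16%) fell with the block: Tox 1425483_at and 1425484_at, Gata3 1448886_at and Lef1 1421299_a_at. Over all probe sets, 5.16% were called with the block, and 1.77% were called lower. SP4 was below SP1 in 3 of 3 pairs of arrays for 5 of the 9 genes (Cd4, Zbtb7b, Gata3, Tox and Lef1) and for 12 of the 25 probe sets, against 21.6% of all probe sets. The members were chosen with earlier results of these arrays known, so these shares are descriptions.

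**Figure D2:**
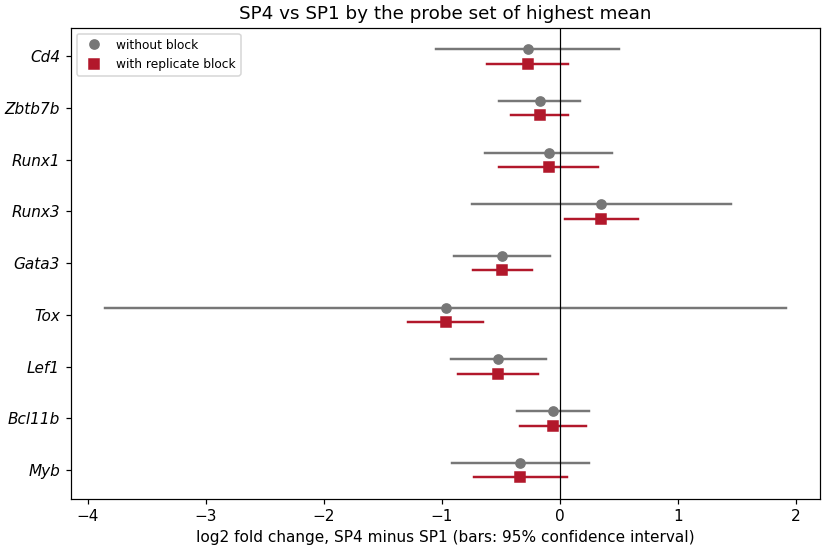
Log2 fold change SP4 minus SP1 of the 9 measured genes (points) with 95% confidence intervals (bars), without the replicate block (grey circles) and with it (red squares). The interval of Tox shrinks most with the block. Those of Gata3 and Lef1 lie below 0 without the block and with it, and that of Tox only with it. With the block, that of Runx3 lies above 0.

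Tox, an HMG box factor needed for CD4 lineage development, lies at chr4:6686353-6991557 (GRCm38.p6). By probe set 1425483_at, Tox had intensities of 1202, 1511 and 144.5 in SP1 (replicates 1, 2 and 3), 1078, 1585 and 104.7 in SP2, 807.4, 863.3 and 74.66 in SP3, and 782.7, 743.3 and 49.68 in SP4. The arrays of replicate 3 were far below the others in every subset, and the subsets therefore overlap when the replicate number is ignored. Within each replicate number SP4 was the lowest of the 4 subsets. The SP4 vs SP1 log2 fold change was -0.97, and on that scale the SP1 level was 1.96 times the SP4 level. Without the block its standard error was 1.32 (adjusted p = 1.00), and with the block it was 0.15 (adjusted p = 0.00172, limma). This call held whichever of the 12 arrays was left out, with adjusted p between 0.000414 and 0.0174. It ended with the 8 arrays of replicates 1 and 2 alone, where the log2 fold change was -0.81 (adjusted p = 0.0884 with the block).

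Between neighbouring subsets, the mean Tox difference by this probe set was widest in SP3 vs SP2, where CD69 is lost. In SP2 vs SP1 the log2 fold change was -0.17 (95% interval -0.48 to 0.15 with the block). It was -0.56 in SP3 vs SP2 and -0.24 in SP4 vs SP3, neither past the threshold with the block (adjusted p = 0.185 and 0.596, limma). With the block, Tox fell in SP4 against SP2 by 0.80 on the log2 scale (adjusted p = 0.0103), which ended without SP4 replicate 2 (adjusted p = 0.054) or SP4 replicate 3 (adjusted p = 0.0819). The widest step was also SP3 vs SP2 by 1425484_at (-0.33). By the Tox probe set 1442039_at it was SP2 vs SP1 (-0.31), with -0.09 in SP3 vs SP2. Whether the step from SP2 to SP3 differs from the other steps was not tested.

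The other Tox probe sets gave the same direction in SP4 vs SP1 at quite different brightness. By 1425484_at, Tox had 388.7, 438.7 and 315.3 in SP1, 375.4, 491.6 and 278 in SP2, 278.6, 374.2 and 239.1 in SP3, and 294.8, 268.3 and 177.2 in SP4, so that every SP4 array was below every SP1 array. With the block it fell in SP4 vs SP1 by 0.61 on the log2 scale (adjusted p = 0.0151, limma), but not when SP1 replicate 1 or 3 or SP4 replicate 2 or 3 was left out (adjusted p up to 0.0971). Against SP2 it fell by 0.59 (adjusted p = 0.0301), and 7 of the 12 omissions ended that call: SP1 replicate 1, any SP2 array, SP3 replicate 3 and SP4 replicates 2 and 3 (adjusted p up to 0.177). By 1442039_at, replicate 3 was the highest in each subset, with 317.4 in SP4 and 687.7 in SP1, while replicates 1 and 2 had 116.3 and 159.1 in SP4 and 147.1 and 209.4 in SP1. By this probe set SP4 minus SP1 was -0.58 on the log2 scale, lower in 3 of 3 pairs and not past the threshold (adjusted p = 0.136 with the block).

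**Figure D3:**
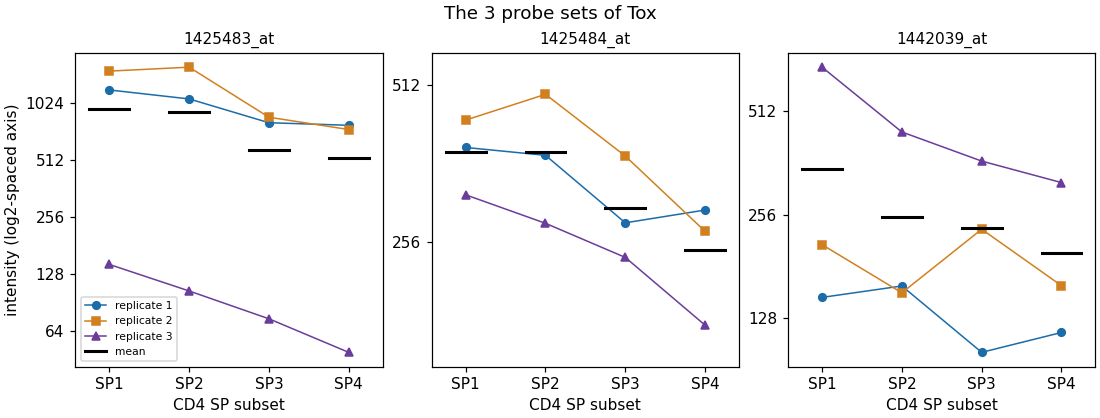
Intensity (log2-spaced axes) of the 3 Tox probe sets in SP1, SP2, SP3 and SP4, with 1 point per array, lines joining arrays of the same replicate number and black bars at the subset means. Replicate 3 is lowest by 1425483_at (144.5 to 49.68) and highest by 1442039_at (687.7 to 317.4), and by both it declines from SP1 to SP4.

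Gata3, the zinc finger factor that acts upstream of ThPOK, lies at chr2:9857078-9887953 (GRCm38.p6). Its intensities were 524.7, 665.7 and 724.7 in SP1, 472.2, 567.1 and 524.9 in SP2, 402.7, 508.4 and 483.6 in SP3, and 372.5, 458.5 and 522.3 in SP4. No SP4 array reached the lowest SP1 array, although the gap between 522.3 and 524.7 is small. Means were 451 ± 75.2 in SP4 and 638 ± 103 in SP1 (SD, n = 3 each). The difference of -0.49 on the log2 scale had a standard error of 0.19 (adjusted p = 0.459, limma), and with the block Gata3 fell (standard error 0.11, adjusted p = 0.0262). Leaving out any 1 of the 3 SP1 or 3 SP4 arrays ended this call, with adjusted p up to 0.117. Between neighbouring subsets the log2 fold change was -0.28 in SP2 vs SP1, -0.16 in SP3 vs SP2 and -0.05 in SP4 vs SP3, none of which passed the test.

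Zbtb7b, the gene of ThPOK, had its highest mean in SP2, although in replicate 3 SP1 was above SP2 by both probe sets and SP2 vs SP1 did not pass the test. By 1455071_at it had 181.1, 234.9 and 217.8 in SP1, 219.4, 254.8 and 207.9 in SP2, 161.4, 194.7 and 168.8 in SP3, and 172.2, 188.7 and 194.1 in SP4. Every SP3 and SP4 array was below every SP2 array. The SP3 vs SP2 log2 fold change was -0.35 (95% interval -0.59 to -0.11 with the block, adjusted p = 0.33, limma). The dimmer probe set 1420663_at gave -0.67, lower in 3 of 3 pairs (adjusted p = 0.0505 with the block). By that probe set and with the block, Zbtb7b fell in SP4 vs SP2 by 0.55 on the log2 scale (adjusted p = 0.0307), which ended in 8 of the 12 omissions of 1 array (adjusted p up to 0.158): SP1 replicate 2, SP2 replicates 1 and 2, SP3 replicates 1 and 3 and any SP4 array. In SP4 vs SP1 the 2 probe sets gave -0.17 and -0.36 (adjusted p = 0.505 and 0.135 with the block).

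Cd4, the coreceptor on which the sort rests, was present in all 12 arrays. By 1419696_at it had 730.5, 958.2 and 607.7 in SP1, 934.7, 846.3 and 540.8 in SP2, 645.6, 1027 and 423.5 in SP3, and 611.9, 914.9 and 423.2 in SP4. Replicate 3 was the lowest array of every subset, and the ranges of the 4 subsets overlap. The SP4 vs SP1 log2 fold change was -0.27 (95% interval -0.62 to 0.07 with the block, adjusted p = 0.437, limma). By 1427779_a_at, SP4 was also below SP1 in 3 of 3 pairs, at -0.36 (adjusted p = 0.139 with the block).

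Runx1 and Runx3 encode DNA-binding partners of Cbfb, and did not pass the test in any of the 6 comparisons. Runx1, which represses Cd4 in immature thymocytes, had 482.6, 446.2 and 743.7 in SP1, 443.5, 776.3 and 548.9 in SP2, 493.8, 564.7 and 617.6 in SP3, and 507.5, 430.3 and 598.4 in SP4 by 1422864_at. These ranges overlap throughout, and the SP4 vs SP1 log2 fold change was -0.10 (95% interval -0.52 to 0.33 with the block). The other 5 Runx1 probe sets gave -0.36 to -0.12. For Runx3, 1440275_at had 148.7, 136.6 and 357 in SP1, 145, 119.5 and 355.7 in SP2, 131.1, 194.1 and 357.1 in SP3, and 184.6, 192.6 and 448.3 in SP4. In each replicate number SP4 was above SP1, and it was the 1 member probe set of the 25 with a fold change above 0. Its log2 fold change was 0.35 (95% interval 0.04 to 0.66 with the block), which did not pass the test across all probe sets (adjusted p = 0.219, limma). The dim Runx3 probe set 1421467_at had means of 51.6 ± 1.86 in SP4 and 52.4 ± 5.62 in SP1, a log2 fold change of -0.01. With probe sets that differ in this way, no direction is given for Runx3.

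Lef1, the HMG box factor of the Wnt pathway, lies at chr3:131110297-131224357 (GRCm38.p6), and was lower in SP3 than in SP2 by both probe sets in 3 of 3 pairs without passing the test there. By 1454734_at it had 2224, 2446 and 2982 in SP1, 2222, 3121 and 2277 in SP2, 1584, 2159 and 2006 in SP3, and 1897, 1817 and 1569 in SP4. Every SP3 and SP4 array was below every SP1 and SP2 array. In SP4 vs SP1 the log2 fold change of -0.52 had a standard error of 0.18 and an adjusted p of 0.366 without the block and 0.0796 with it (limma). By 1421299_a_at, Lef1 had 967, 981.2 and 587.9 in SP4, against 1462, 1743 and 1075 in SP1, and replicate 3 was the lowest array in both subsets. With the block this probe set fell by 0.75 on the log2 scale (adjusted p = 0.0111), a call that ended without SP1 replicate 3 or SP4 replicate 2 (adjusted p up to 0.0717). Its SP4 vs SP3 log2 fold change was 0.00.

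Bcl11b, the zinc finger factor of T lineage commitment, was bright and nearly level. By 1435227_at it had 3042, 3008 and 3771 in SP1, 3046, 3133 and 3429 in SP2, 3154, 4202 and 3740 in SP3, and 3251, 2960 and 3172 in SP4. The ranges overlap, and the SP4 vs SP1 log2 fold change was -0.06, with a 95% interval of -0.37 to 0.25 without the block and -0.34 to 0.22 with it. By all 4 probe sets SP3 was above SP2 in 3 of 3 pairs, at a log2 fold change of 0.20 by 1435227_at (adjusted p = 0.726 with the block, limma).

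Myb, a factor abundant in immature thymocytes, had its lowest mean in SP2. By 1450194_a_at it had 1490, 1277 and 765.2 in SP1, 759.7, 673.9 and 823.2 in SP2, 1620, 1140 and 897 in SP3, and 1034, 893.7 and 778.8 in SP4. In replicates 1 and 2, SP2 was the lowest subset, while in replicate 3 the 4 subsets lay between 765.2 and 897. The SP2 vs SP1 log2 fold change was -0.59 (lower in 2 of 3 pairs) and that of SP3 vs SP2 was 0.65 (higher in 3 of 3 pairs), with adjusted p of 0.409 and 0.24 with the block (limma). In SP3 vs SP2, leaving out single arrays gave a call for Myb only without SP2 replicate 3, its highest SP2 array. There Myb rose (log2 fold change 0.91, adjusted p = 0.0385, limma with the block). The _x_at probe set had the same shape, where SP1 averaged 1699 ± 351, SP2 1191 ± 234, SP3 1812 ± 332 and SP4 1347 ± 53.2 (SD, n = 3 each).

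Genes of double positive thymocytes, which the CD8 depletion and gate should leave out, varied between the same arrays as Myb. The summed intensity of 11 measured genes of that type was 1582 to 8531 on SP1 arrays, 1456 to 3117 on SP2 arrays, 2818 to 15040 on SP3 arrays and 1570 to 3995 on SP4 arrays. Rag1, which encodes a subunit of the recombinase, had 1258, 1111 and 20.04 in SP1, 299.5, 34.78 and 83.68 in SP2, 2280, 1563 and 343.5 in SP3, and 651.8, 669.2 and 122.9 in SP4. Cd8a, whose product was depleted, had 765.3, 1083 and 55.49 in SP1, 271.7, 82.89 and 34.67 in SP2, 1838, 893.4 and 81.55 in SP3, and 358.2, 247.2 and 16.31 in SP4. As with Myb, the arrays of SP1 and SP3 were high in replicates 1 and 2 and low in replicate 3. In SP3 vs SP2, 2 of the 11 genes rose with the block and 0 were called without it. Endou, one of the 11, was also the gene whose pattern was most like that of Myb. The part of such cells in the Myb levels was not tested.

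**Figure D4:**
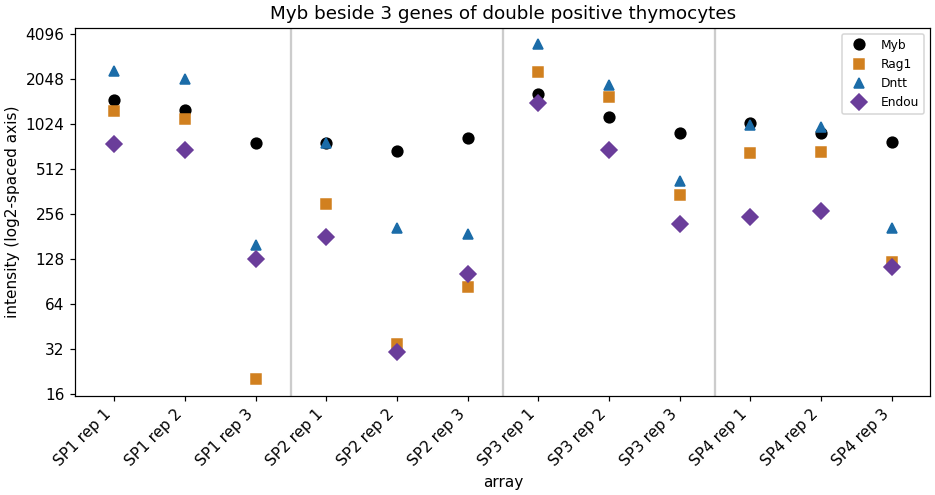
Intensity (log2-spaced axis) of Myb, Rag1, Dntt and Endou on each of the 12 arrays, ordered by subset and replicate number (rep). Myb is highest on SP3 replicate 1 (1620), where Rag1 also peaks (2280), and Myb spans a narrower range than the other 3 genes.

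Markers of other T cells differed between SP4 and SP1, although the sort removed NK1.1+ and CD25+ cells. The summed intensity of 11 measured genes of NKT and innate-like T cells was 4038 to 6313 in SP4, against 1346 to 2109 in SP1, and 8 of the 11 rose without the block. Zbtb16, which defines innate-like T cells, had 174.4, 317.3 and 301.1 in SP4, against 36.91, 25.83 and 12.95 in SP1. Of 7 measured genes of activated or memory T cells, 1 rose without the block and 5 with it, and their sum was 2624 to 4134 in SP4 and 1189 to 2907 in SP1. For 5 genes of regulatory T cells the sum was 2239 to 3760 in SP4 and 2178 to 3570 in SP1, with 1 gene called higher without the block and 2 with it. Among them, Foxp3 had 66.22, 135.8 and 65.29 in SP4, against 24.85, 23.49 and 12.96 in SP1. Means in SP4 and SP1 were 784 and 310 for Ctla4 and 64.7 and 50 for Il2ra. For the brighter Ikzf2 and Tnfrsf18 they were lower in SP4, at 1130 and 1208 and at 937 and 1141. The double positive genes summed to 1570 to 3995 in SP4 and 1582 to 8531 in SP1, none of them past the test in this comparison. Sums for 3 genes of gamma-delta T cells, 7 of B cells, 8 of myeloid and dendritic cells, 9 of thymic epithelium and stroma and 3 of erythroid cells reached at most 991.8 on any array. In SP4 vs SP1 none of these 5 lists had a call without the block, and with it 1 gamma-delta T cell gene (Cd163l1) and 2 myeloid and dendritic genes (Siglech and Itgam) rose. Siglech, a receptor of plasmacytoid dendritic cells, had 168.5, 180.1 and 128.3 in SP4, against 70.29, 83.81 and 33.29 in SP1. Itgam lay below the array medians, with 12.93, 15.66 and 15.8 in SP4 and 9.322, 10.68 and 8.45 in SP1. Lyz2, of the same list, averaged 220 ± 156 in SP4 and 223 ± 146 in SP1 (SD, n = 3 each). The part of these cells in the lower Tox, Gata3 and Lef1 levels of SP4 was not tested.

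In the other 5 comparisons, few members were called. Without the block, limma called 0 of the 9 genes in each of them, where 0% of all probe sets were called in SP2 vs SP1, 0% in SP3 vs SP2, 0.16% in SP4 vs SP3, 0.0111% in SP3 vs SP1 and 0.557% in SP4 vs SP2. An unadjusted p under the threshold was found for 1 of the 9 in SP2 vs SP1 (3.04% of all genes), for 2 in SP3 vs SP2 (3.41%), for 0 in SP4 vs SP3 (5.34%), for 2 in SP3 vs SP1 (3.3%) and for 1 in SP4 vs SP2 (7.52%). With the block, 1 of the 9 genes fell in SP4 vs SP2 (Tox), as did 3 of the 25 probe sets (12%), where 2.65% of all probe sets were called and 0.808% were called lower. No member was called with the block in the other 4 comparisons, where the share of all probe sets called was 0.00888% in SP2 vs SP1, 0.22% in SP3 vs SP2, 1.16% in SP4 vs SP3 and 0.329% in SP3 vs SP1. There, 2 of the 9 genes had an unadjusted p under the threshold in SP2 vs SP1 (8.47% of all genes), 4 in SP3 vs SP2 (9.07%), 0 in SP4 vs SP3 (12.4%) and 4 in SP3 vs SP1 (8.28%). In SP3 vs SP1, Tox had a log2 fold change of -0.73 (adjusted p = 0.0665 with the block) and Lef1 1421299_a_at one of -0.75 (adjusted p = 0.0681, limma).

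The arrays of replicate 3 differed from those of replicates 1 and 2 by more than 1 on the log2 scale, as a mean over the 4 subsets, for 4 of the 25 member probe sets (16%), against 4.117% of all. Tox 1425483_at averaged 93.4 in replicate 3 and 1072 in replicates 1 and 2, a log2 difference of -3.34. In contrast, 3 probe sets were brighter in replicate 3. Tox 1442039_at averaged 454 in replicate 3 and 160 in the others, Runx1 1440878_at 303 and 123, and Runx3 1440275_at 380 and 156.5. For Tox and Runx1, other probe sets of the same gene moved the opposite way or by less, and what sets replicate 3 apart was not tested.

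**Figure D5:**
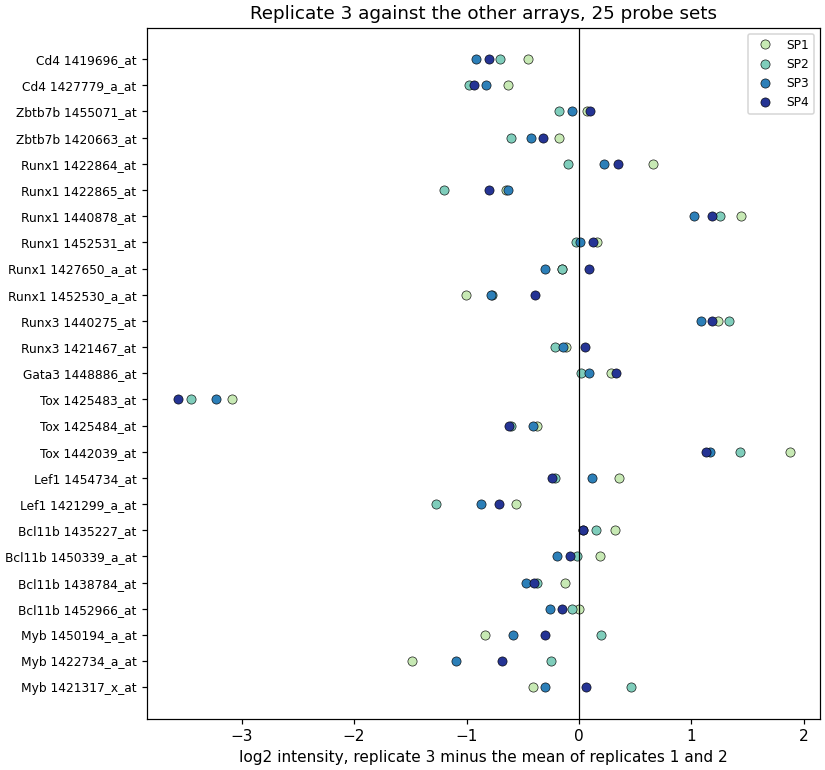
Log2 intensity of replicate 3 minus the mean of replicates 1 and 2 (x axis) for the 25 member probe sets (rows), with 1 point per subset coloured as in the legend. Tox 1425483_at lies below -3 in all 4 subsets, and Tox 1442039_at, Runx1 1440878_at and Runx3 1440275_at lie above 1 in all 4.

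Around the members, 4 lists of related genes were read in SP4 vs SP1. Of 13 genes of the lineage circuit, 1 rose and 1 fell without the block, and 1 rose and 3 fell with it, with a median log2 fold change of -0.10. Itgae, the integrin CD103 that RUNX3 controls in CD8 T cells, had 485.5, 457.5 and 496.5 in SP4, against 130.3, 96.74 and 23.32 in SP1. On the log2 scale it rose by 2.52 with a standard error of 0.43 (adjusted p = 0.0162 without the block and 0.000992 with it, limma), and without the block it ended when any SP4 array was left out (adjusted p up to 0.0625). Socs1, an inhibitor of cytokine signalling, had 74.68, 97.1 and 72.84 in SP4 and 156.8, 165.8 and 196 in SP1, and fell by 0.96 (adjusted p = 0.0382 without the block and 0.00303 with it). Its call ended in 10 of 12 omissions without the block (all but SP3 replicates 2 and 3) and in none with it. Patz1, a zinc finger repressor of Zbtb7b, fell by 0.58 with the block (adjusted p = 0.0132), and Satb1, the chromatin organiser, by 0.59 (adjusted p = 0.0373). Cd8a had a log2 fold change of -1.42 (adjusted p = 0.0673 with the block).

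Of 13 measured family relatives of the members, 0 rose and 1 fell without the block, and 1 rose and 3 fell with it, with a median of 0.01. Tox2, a close relative of Tox, had 125.3, 177.6 and 256.9 in SP4 and 265.1, 268.2 and 602.2 in SP1, and with the block fell by 0.91 on the log2 scale (adjusted p = 0.0033, limma), a call held in all 12 omissions. Unlike Tox 1425483_at, Tox2 was highest in replicate 3 in every subset. Tcf7l2, a relative of Lef1, fell by 0.85 without the block (adjusted p = 0.00659) and with it (adjusted p = 2.84e-05) at a level near or below the array medians, with 10.17, 14.2 and 7.211 in SP4 and 30.66, 35.01 and 29.27 in SP1. Tox3 and Gata1, called lower and higher with the block, were also dim, with means of 9.19 ± 2.88 and 38.8 ± 9.88 in SP4 against 22.1 ± 7.32 and 20.5 ± 5.72 in SP1.

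Of 18 measured T identity genes and chromatin partners, none was called without the block (limma), and with it Ikzf3, a relative of Ikaros, rose by 0.60 on the log2 scale (adjusted p = 0.0136). The list's median was -0.12. Its other genes of larger fold, Hes1, Id3 and Notch1, had log2 fold changes of -0.48, -0.46 and 0.37 and did not pass the test. Of 13 measured cofactors of TCF and LEF factors, none was called without the block, and with it Bcl9l, a coactivator of beta-catenin, rose by 0.61 (adjusted p = 0.024) and Tle2, a dim corepressor gene, fell by 0.32 (adjusted p = 0.0186), with a median of -0.03. These calls with the block did not hold in every omission of 1 array. That of Ikzf3 ended without SP1 replicate 1 or 2 or SP4 replicate 1, that of Bcl9l without SP1 replicate 2 or 3 or SP4 replicate 2 or 3, and that of Tle2 without SP1 replicate 1 or 3 or SP4 replicate 1 or 3. In the lineage circuit, the call of Patz1 ended without SP1 replicate 1 or 3 or SP4 replicate 2 or 3, and that of Satb1 without any SP1 or SP3 array or SP4 replicate 2 or 3.

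In the other comparisons the lists gave 1 call without the block, the rise of Itgae in SP4 vs SP2 by 3.09 on the log2 scale (adjusted p = 0.00792, limma), which ended without SP2 replicate 2 (adjusted p = 0.0522). With the block, Tcf7l2 fell in SP3 vs SP1 by 0.64 (adjusted p = 0.00294), held in all 12 omissions. Ikzf2, the gene of Helios, fell in SP3 vs SP2 by 1.09 (adjusted p = 0.0103), and not without SP2 replicate 1 or SP3 replicate 1 or 3. Bcl11a, a relative of Bcl11b, rose in SP4 vs SP2 by 0.62 (adjusted p = 0.0157, limma). It was dim, with means of 33.1 in SP4 and 16 in SP2. Cd5, a surface inhibitor of T cell receptor signals, fell in SP4 vs SP2 by 0.66 (adjusted p = 0.0138, limma). The calls of Bcl11a and Cd5 both ended without SP2 replicate 1 or SP4 replicate 2 or 3. Cd8a and Cd8b1, the CD8 coreceptor chains, rose in SP3 vs SP2 by 2.28 and 2.44 (adjusted p = 0.0468 and 0.0347), and these calls ended in 8 and 7 of the 12 omissions, including each SP3 array. The other calls with the block were a rise of Itgae in SP4 vs SP3, which ended without SP3 replicate 1 or SP4 replicate 3, and falls of Tcf7l2 in SP4 vs SP2, held in all 12 omissions, and of Tox3 in SP4 vs SP3, which ended without SP3 replicate 2 or SP4 replicate 2 or 3. The rise of Bcl9l and the falls of Satb1, Cd2 and Tox3 in SP4 vs SP2 ended in 10, 10, 9 and 7 of the 12 omissions, the fall of Cd8a in SP4 vs SP3 in 8 and that of Cd5 in SP3 vs SP2 in 9.

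The gene whose log2 values were most like those of each member over the 12 arrays was taken from 8355 genes with a mean intensity of 64 or more. Pearson's r was highest between Tox and Rpn2 (0.992), Runx3 and Zmynd8 (0.990), Cd4 and Ldb1 (0.987), Runx1 and Appbp2 (0.953), Lef1 and Arhgef6 (0.952), Myb and Endou (0.944), Gata3 and Armcx3 (0.923), Zbtb7b and Slc35a1 (0.921) and Bcl11b and Kmt2b (0.861). These values are descriptions across arrays that share the replicate number, so that a gene with the same shift in replicate 3 scores high.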

How the data were processed

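RNA of sorted CD4 SP thymocyte subsets was hybridised to 12 Affymetrix Mouse Genome 430 2.0 arrays, 3 per subset. Values in the deposited table are intensity on a linear scale, background-corrected and normalized by the authors. Their methods name RMA and the processing notes MAS5, so which of them made the values is unsettled; no version of RMA or MAS5 is given in the sources used here. Groups came from the sample titles. By the array annotation, 34945 probe sets name 1 gene, 932 several and 9160 none. After adding 16, log2 values were fitted with limma 3.58.1 in R 4.3.3 (lmFit, eBayes with trend, 1 mean per subset, 8 residual degrees of freedom), in place of the SAM test of the methods. P-values were adjusted by Benjamini-Hochberg over 45037 probe sets within each of 6 comparisons, and the code was tested on simulated data. Precision is limited by having 3 arrays in a subset.

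A second fit took the replicate number as a block (6 residual degrees of freedom). Within 0.1%, the columns of each array repeat in the study's supplementary lists match 1 replicate number in all 4 subsets, except for 1 of 288 values in SP2 and 1 of 204 in SP3. Deviations from subset means correlated between 0.28 and 0.88 for arrays of the same number. Between replicates 1 and 2 the correlations were 0.18 to 0.73, and between replicate 3 and the others -0.81 to -0.39. Deviations within a subset cancel out, so the negative values of replicate 3 follow by arithmetic from the positive ones and are no separate evidence. The first 2 ranges overlap, so the correlations set apart replicate 3 alone. For example, SP2 replicate 2 had 0.73 with SP4 replicate 1 and 0.28 with SP4 replicate 2. The pairing within replicates 1 and 2 therefore rests on the match to the array repeats. The study names 3 independent preparations of the subsets, and the sample titles call the replicates biological. Nothing states separate animals beyond these pooled preparations, so p-values measure the spread between these arrays.

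The members and lists were chosen with earlier results of these data known. All members are named by their probe set of highest mean, other probe sets where their call or direction differs, and of each list the called members and up to 4 of largest fold. Alternatives were other offsets, a filter on dim probe sets, 2 further normalizations, no trend, the 2 subsets alone, other probe sets and each array left out.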

Additional observations from a re-analysis of the deposited data

How the results depend on the processing

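Without the replicate block, no alternative but the block itself changed the number of members called, which was 0 in each of the 6 comparisons, and leaving out single arrays gave 0 throughout. With the replicate number as a block, 1 member was called in SP4 vs SP2 and 2 in SP4 vs SP1. It changed no call in the other 4 comparisons.

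In the fit with the block, alternatives were chosen after seeing the data. Leaving out 1 array gave 0 to 1 members in SP3 vs SP2 (1 without SP2 replicate 3, Myb), 0 to 1 in SP3 vs SP1 (1 without SP2 replicate 2 or SP4 replicate 1, Tox), 0 to 2 in SP4 vs SP2 (2 without SP4 replicate 1, adding Lef1, and 0 without SP4 replicate 2 or 3) and 1 to 2 in SP4 vs SP1 (1, Tox, without any SP1 array or SP4 replicate 2 or 3; without SP4 replicate 1 there were 2, with Lef1 in place of Gata3). A filter at a mean intensity of 64 gave 1 in SP3 vs SP1 (Tox). In SP4 vs SP2, the mean of all probe sets of a gene gave 2 and the probe set of second highest mean gave 2, both adding Zbtb7b. The 8 arrays of replicates 1 and 2 gave 0 in SP4 vs SP2 and 0 in SP4 vs SP1. The causes were not tested. No called value changed sign. Over single genes, 904 values with the block kept direction and call, 12 gained and 11 lost a call, and 45 uncalled values changed sign. Without the block, Tox in SP4 vs SP1 went to 0.22 on the log2 scale when SP4 replicate 3 was left out.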
